A study of Mus musculus with 24 samples.

Results

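The transcripts described here were those of the mouse heat shock proteins and chaperones, chosen by gene symbol: the HSP70 and HSP110 proteins (Hspa and Hsph), the HSP90 proteins (Hsp90), the small heat shock proteins (Hspb), the mitochondrial chaperonin and its lid (Hspd1 and Hspe1), the J-domain proteins (Dnaja, Dnajb and Dnajc), the cytosolic chaperonin subunits (Cct) and the BAG proteins (Bag). A total of 84 RefSeq symbols fit this rule and 83 of them had a probe on the array, out of 45616 genes and unmatched targets. Dnajb5 had no probe there. The 83 members were read by 146 probes, 40 members had more than 1 probe, and the brightest probe in each tissue stood for the gene.

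The study put RNA of C57BL/6J mice on 24 single-colour Agilent arrays, 6 for each of kidney, liver, lung and white fat, which is called white adipose tissue (WAT) below. Each tissue was taken from 3 young mice of 10 weeks (10W) and 3 aged mice of 90 weeks (90W). All were males of this inbred strain, and the labels name no transgene, treatment or diet, so the ages differed by no other labelled factor. The aged livers were numbered 1, 2 and 4, and whether 1 mouse gave several tissues was not stated.

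Chaperones bind unfolded or newly made proteins and help them fold, assemble, cross membranes or reach the degradation machinery. HSP70 proteins work in cycles of ATP hydrolysis that are started by J-domain proteins and ended by exchange factors such as the BAG and HSP110 proteins, while HSP90 acts later on signalling proteins and receptors. Small heat shock proteins hold unfolded proteins without ATP, and the chaperonins enclose them in a chamber. Heat shock factor 1 induces many of these genes by binding inverted repeats of the letters GAA. A separate pathway, the unfolded protein response, induces the chaperones of the endoplasmic reticulum (ER).

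Levels are given as the log2 of the processed signal minus the 75th percentile of its array, so that 0 is the signal of a fairly bright probe. A change is the aged mean minus the young mean on that scale, and SE is its standard error. A member was tested in a tissue where at least 3 of the 6 arrays read it well above background, and it was called at an adjusted p under 0.05 (limma, Benjamini-Hochberg over all genes tested in the tissue). Different probes bind with different strength, so levels are compared between mice for 1 gene and never between genes. The 6 arrays of a tissue lay on 1 slide that held both ages, so a level in 1 tissue against another cannot be told apart from the slide. In RNA from whole tissue, fewer cells of a type and less RNA per cell cannot be told apart. Nothing beyond the numbering says that the samples of a group are separate animals, and the p-values measure only the spread between them.

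Each tissue carried its own markers. The summed linear levels of Alb, Apoa1, Ttr and Serpina1a were 2850 to 3310 times the 75th percentile in the young and 1990 to 2280 times in the aged livers, the lung markers summed to 1370 to 2040 in the lungs, and the adipocyte markers to 635 to 855 in the WAT. In the kidneys the tubule marker Umod read 8.55 to 8.91 in the young and 7.04 to 8.15 in the aged mice, on the log2 scale, and was at most -3.31 in every other tissue. A total of 3 libraries stood apart through markers of another tissue or cell type, 1 of them through a single gene. The liver markers summed to 214 in aged lung replicate 1, against 0.242 to 7.99 in the other lungs, and that array had 59.5% of probes well above background, the fewest of the lungs. The male germ cell markers summed to 77.8 in young WAT replicate 1, against 0.314 to 6.88 in the other WAT samples. The brown fat markers summed to 5.75 in aged liver replicate 4, against 0.0634 to 0.375 in the other livers. This was the work of Cidea alone, at 2.49 against -2.35 or less. Cox8b read -3.21 there, between the -2.55 and -4.43 of aged livers 1 and 2, and Ucp1 was not well above background in any liver. Over all 24 arrays, 58.6% to 71.1% of probes stood well above background, and 0 spots were saturated.

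The kidney held most of the called changes in these genes, 65 of 79. In the kidney 8 of 80 tested members were higher and 57 were lower in the aged mice, which is 10% and 71.2% of them. Of the 8 higher, Dnajb13 passed the filter through the aged mice alone. Over all genes tested in the kidney, 20.6% were called higher and 42.6% lower, so lower calls were more frequent and higher calls less frequent among the members. In the liver 4 of 77 members were higher and 7 lower, or 5.19% and 9.09%, both below the 10.5% and 17.0% of all genes tested there. In the lung none of 80 was higher and 3 were lower (3.75%), beside 2.72% higher and 2.89% lower over all genes. In the WAT none of 79 was called either way by limma, beside 2.01% higher and 0.579% lower over all genes, and 1 member was higher and 5 were lower at an unadjusted p under 0.05. The other tools and fits run on the WAT made no call either, apart from a fit of all 24 arrays together, which called 2 higher and 7 lower. Over all 30063 genes tested that fit called 3263 higher and 3127 lower.

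Counts of members whose young and aged mice did not overlap gave the same order of tissues. They were 68 of 80 (85%) in the kidney beside 70.7% of all genes, 38 of 77 (49.4%) in the liver beside 49.9%, 31 of 80 (38.8%) in the lung beside 35.8%, and 14 of 79 (17.7%) in the WAT beside 28.8%. The tested members had a median change of -0.44 in the kidney, -0.30 in the liver, -0.20 in the lung and -0.05 in the WAT. The corresponding medians of all genes tested were -0.23, -0.20, -0.08 and -0.05 in the same order. Over the 4 tissues, 15 members were called nowhere, 50 were lower in 1 tissue and 7 were lower in both liver and kidney. Of the others, 5 were higher in 1 tissue, Hspa2 and Hspb2 were higher in both liver and kidney, and Dnajc12, Hspb1 and Hspb8 were called in opposite directions in a pair of tissues. No member was called in 3 tissues.

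**Figure D1:**
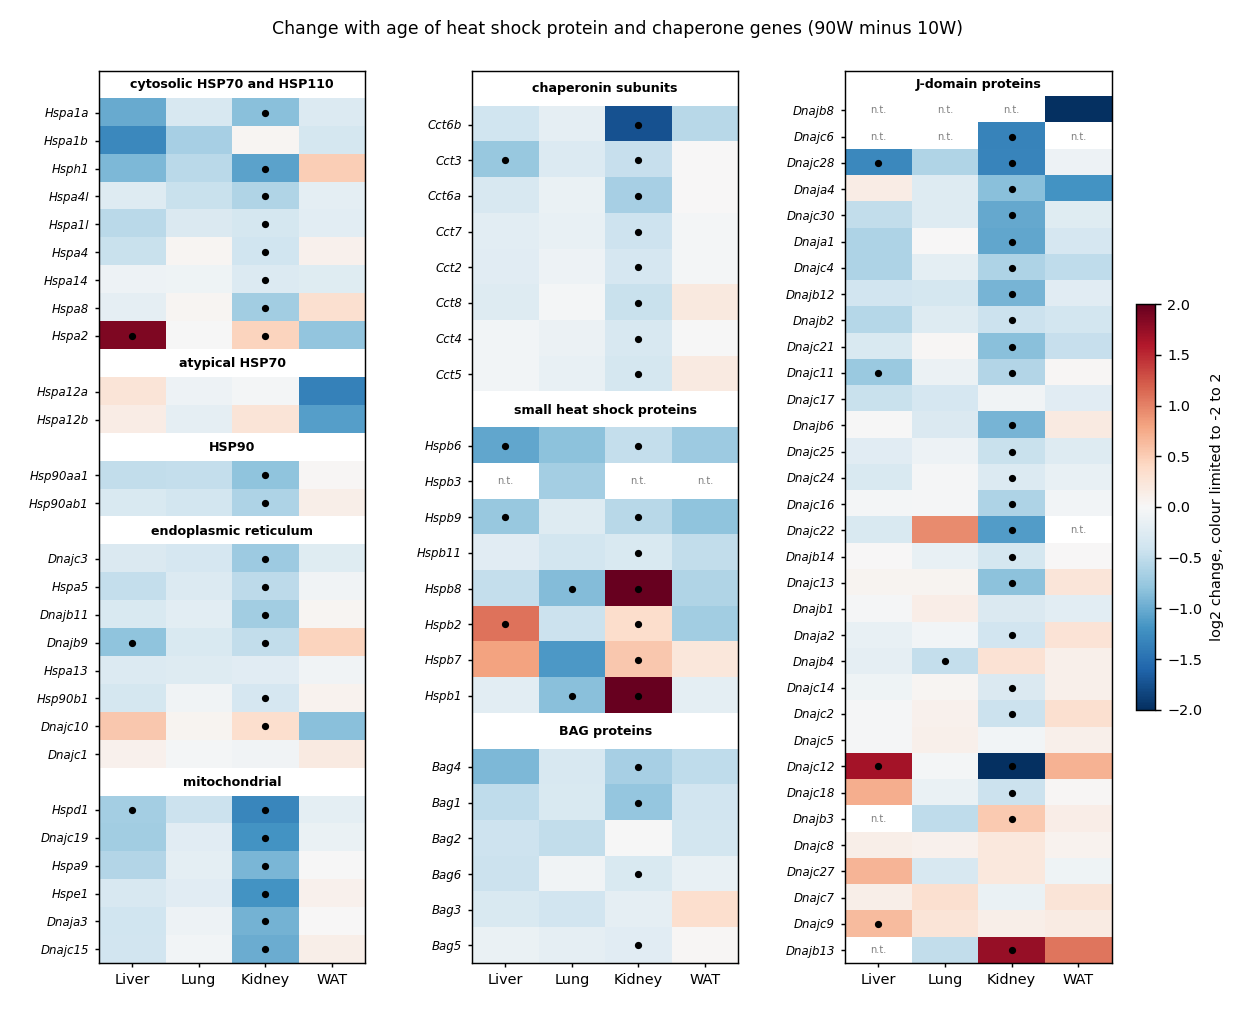
Change of every member in each tissue, as a heat map of the log2 difference between the 90W and 10W means, grouped by role; a black dot marks an adjusted p under 0.05 (limma) and n.t. a member not tested in that tissue. The kidney column holds 65 dots, the liver 11, the lung 3 and the WAT none. Under quantile or spike-in scaling several of the kidney members with small changes turn sign.

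The size of the kidney counts depended on how the arrays were scaled. The 75th percentile of the raw processed signal was 460 to 618 units in the young and 788 to 862 units in the aged kidneys. Scaling each array to its spike-in control spots raised the median change of all kidney genes by 0.35, and the members' split became 13 higher and 22 lower. Of all 31505 genes tested, 9176 were then higher and 5220 lower, beside 6483 and 13410 under the 75th percentile. Quantile normalization gave 10 higher and 35 lower members, beside 7718 and 11827 of all genes. The members' median less that of all genes was -0.20 under the 75th percentile scaling. Spike-in scaling shifts all genes of an array alike, so this difference is the same there by construction. Under quantile normalization, which can change it, the members' median did not differ from that of all genes (0.00). Spike-in scaling also moved the median of all genes by 0.16 in the liver and by -0.16 in the lung, and centring on the median moved it by -0.11 in the kidney. A total of 22 of the 65 kidney calls passed under each of 15 alternatives, and none of the 11 liver calls or 3 lung calls did. Without aged kidney replicate 2 the count of higher members was 5.

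The members were bright genes, and bright genes were called lower more often in this tissue. The median kidney level was 2.37 over the members and -1.49 over all genes tested. Among genes with a mean level above 4, 68.7% of all and 20 of 21 members were lower, with median changes of -0.51 and -0.69. Between 2 and 4 the lower share was 57.5% of all genes and 18 of 24 members. Between 0 and 2 it was 45.7% and 12 of 22 members, and below 0 it was 35.5% and 7 of 13 members. The part of brightness in the members' count was not tested.

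Other cell types also moved in the aged kidneys. Of 8 leukocyte markers 7 were higher, and their sum was 17.6 to 26.1 in the young and 42.3 to 62.8 in the aged kidneys. The tubule markers Slc34a1 (-1.24 for its brightest probe in the kidney) and Umod (-1.03) were lower, and Aqp2 changed by -0.17 (adjusted p = 0.654). Of 10 immediate early genes, which respond to handling of tissue, 5 were higher, with sums of 27.1 to 46.4 against 63.9 to 81.9. The part of these markers in the members' changes was not tested.

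The mitochondrial chaperones formed the role group with the largest median fall in the kidney. All 6 were lower, with a median change of -1.09, and all 6 remained lower under spike-in scaling (median -0.74) and quantile normalization (median -0.63). Hspd1 encodes the mitochondrial chaperonin HSP60. Its level was 6.82, 6.91 and 6.97 in the young kidneys and 5.38, 5.60 and 5.80 in the aged kidneys. Every aged kidney lay more than 1 log2 unit below every young kidney, a 2.47-fold difference of the means (change -1.30, SE 0.12, adjusted p = 0.000423). Hspe1, the lid of the same chamber, read 6.16, 6.34 and 6.32 in the young and 4.94, 5.03 and 5.24 in the aged kidneys. The ages were again well separated, by 2.30-fold (change -1.20, SE 0.11, adjusted p = 0.00037).

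Hspd1 and Hspe1 lie head to head and share the DNA between their starts. That stretch is shown because 3 heat shock motifs lie close together in it, and its sequence is from RefSeq, build GRCm38.p6. The capitals mark the fixed letters of the heat shock pairs GAANNTTC and TTCNNGAA, each of which reads the same on both strands and may overlap the next. The last of the 3 matches ends 126 bases before the Hspd1 start, and all 3 also lie in the 250 bases before the Hspe1 start.
Hspd1, chr1:55088053-55088082, minus strand: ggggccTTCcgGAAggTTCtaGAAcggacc

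Hspa9 is mortalin, the HSP70 of the mitochondrial matrix and of protein import. It read 5.32, 5.45 and 5.53 in the young and 4.25, 4.51 and 4.79 in the aged kidneys, with no overlap (change -0.92, SE 0.15, adjusted p = 0.00273). Its J-domain partner Dnaja3 fell by 0.95 (SE 0.11, adjusted p = 0.00084). Dnajc19 and Dnajc15, J-domain proteins linked to the import motor, fell by 1.20 (SE 0.13) and 0.99 (SE 0.09), with adjusted p-values of 0.000592 and 0.000386. The spread of these 6 genes between mice of 1 age was small, with SDs of 0.07 to 0.11 in the young and 0.11 to 0.27 in the aged kidneys.

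In the liver Hspd1 read 7.11, 7.28 and 7.08 in the young and 6.35, 6.29 and 6.79 in the aged mice, without overlap. It fell by 0.68 (SE 0.19, adjusted p = 0.0381). It was the only member of the mitochondrial group called there, although all 6 had negative changes, from -0.70 for Dnajc19 (adjusted p = 0.0572) to -0.33 for Hspe1 (adjusted p = 0.161). The probes of Hspe1 differed in the liver, where the pair of dimmer probes changed by -0.89 and -0.86 with adjusted p-values of 0.017 and 0.028 in a fit over all probes. In that limma fit the dimmer Hspa9 probe changed by -0.65 in the liver (adjusted p = 0.0408). In the lung the changes of the group ran from -0.43 to -0.06 and in the WAT from -0.20 to 0.11, and none was called.

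**Figure D2:**
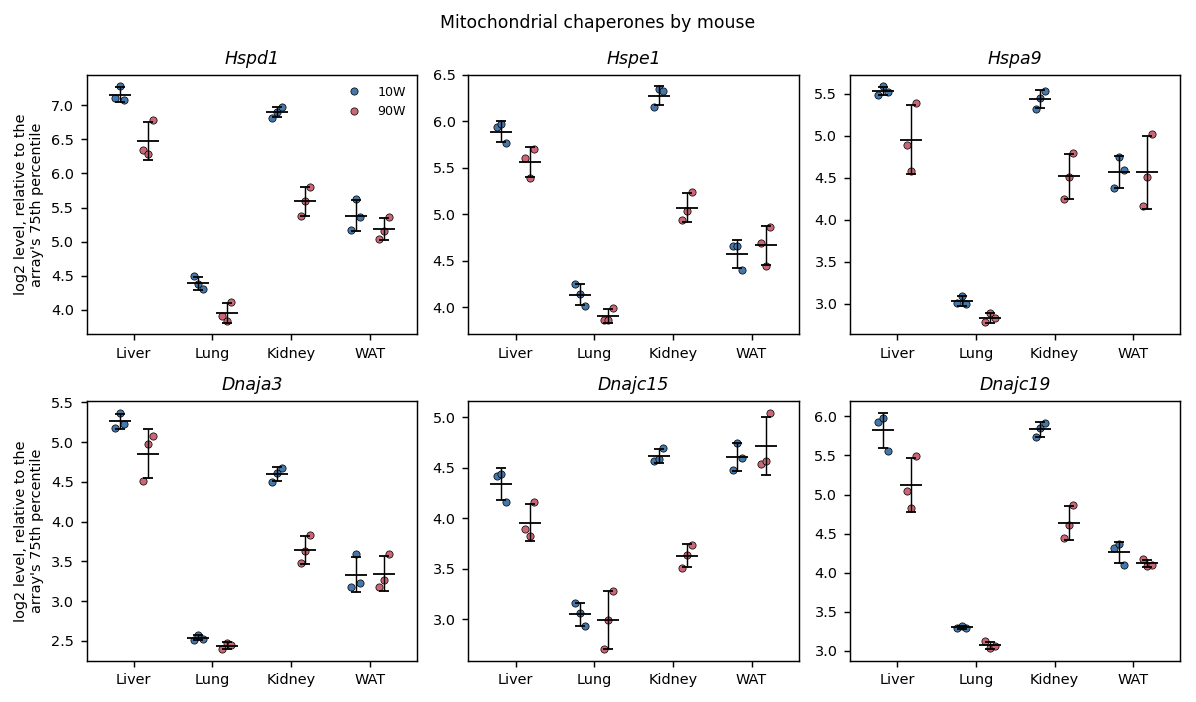
Levels of 6 mitochondrial chaperone transcripts by mouse, on the log2 scale relative to the 75th percentile of each array, in 4 tissues; points are single mice and bars give the mean ± SD of the 3 mice of an age. In the kidney the aged points of each gene lie below the young points, for Hspd1 between 5.38 and 5.80 against 6.82 and 6.97, and in the WAT the ages overlap for all 6.

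Partner genes of the mitochondrial system, taken from a textbook list of 8, moved the same way in the kidney. All 8 were lower, with a median of -0.97, led by Trap1, the mitochondrial HSP90 (-1.28), Clpx, the unfoldase of the ClpXP protease (-1.10), and Grpel1, the nucleotide exchange factor of mortalin (-1.08). Among all genes tested in the kidney 42.6% were lower, with a median change of -0.23, and the share was 68.7% at levels above 4. In the liver 4 of the 8 were lower, with Clpb (-1.17), Trap1 (-1.01) and Clpp (-0.76) the furthest. The share lower among all genes tested in the liver was 17.0%. None of the 8 partners was called in the lung or the WAT.

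The members known to be induced by heat shock did not move as a single group in the kidney. Of these 15, which include the mitochondrial Hspd1 and Hspe1 described above, 10 were lower and 1, Hspb1, was higher, with a median change of -0.61. Under quantile normalization 6 were lower and under spike-in scaling 4 were lower and 2 higher. Hsph1, the HSP110 exchange factor, read 4.32, 4.20 and 3.91 in the young and 2.71, 3.15 and 3.39 in the aged kidneys. The aged mice were all below the young, 2.09-fold on average, with a wide spread (change -1.06, SE 0.20, adjusted p = 0.00441). Dnaja1, the main type I J-domain partner of cytosolic HSP70, fell by 1.04 (SE 0.14, adjusted p = 0.00112). Hspa8, the constitutive HSP70, read 7.61, 7.73 and 7.59 in the young and 6.77, 6.96 and 7.14 in the aged kidneys (change -0.69, SE 0.11, adjusted p = 0.0028).

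The classical heat shock reporters Hspa1a and Hspa1b, near-identical neighbouring copies whose signals may be shared, differed in the kidney. Hspa1a read 2.43, 2.64 and 2.90 in the young and 1.39, 2.0 and 2.08 in the aged kidneys, with no overlap (change -0.84, SE 0.22, adjusted p = 0.0157). Hspa1b read 0.72, 1.12 and 1.27 in the young and 0.72, 1.22 and 1.28 in the aged kidneys, an almost complete overlap (change 0.04, SE 0.21, adjusted p = 0.885). Dnajb1, the partner of induced HSP70, changed by -0.29 (SE 0.22, adjusted p = 0.272), and the co-chaperone Bag3 by -0.18 (SE 0.11, adjusted p = 0.208), neither of them called. The inducible Hspa1a and Hspa1b also varied widely between livers of 1 age. Hspa1a read -1.83, 0.37 and 0.91 in the young and -1.30, -2.09 and -0.17 in the aged livers, and the ages overlapped (adjusted p = 0.346).

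The promoters of these genes are shown because a match to the heat shock pair was more common among them than among all genes. A pair was held by 9 of the 12 inducible members with a RefSeq promoter (75%), within the 250 bases before their start. The share was 16 of 68 members (23.5%) and 3932 of 27025 genes in all (14.5%). The windows are 60 bases each on build GRCm38.p6, read in the direction of the gene, with the fixed letters of the pair in capitals. The closest match to a start was that of Hsph1, 25 bases before it, and those of Hspb1, Hspa1a and Hspa1b, and Dnaja1 lay 89, 96 and 116 bases before theirs. The windows of Hspa1a and Hspa1b were identical, although the 2 probes gave different changes in the kidney.
Hsph1, chr5:149636337-149636396, minus strand: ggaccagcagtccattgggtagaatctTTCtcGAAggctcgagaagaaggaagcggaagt
Hspa1a, chr17:34972227-34972286, minus strand: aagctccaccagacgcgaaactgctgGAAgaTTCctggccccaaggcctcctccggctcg
Hspa1b, chr17:34959309-34959368, minus strand: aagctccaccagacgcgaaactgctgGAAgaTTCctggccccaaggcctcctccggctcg
Dnaja1, chr4:40722318-40722377, plus strand: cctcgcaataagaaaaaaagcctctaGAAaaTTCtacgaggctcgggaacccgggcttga
Hspb1, chr5:135887796-135887855, plus strand: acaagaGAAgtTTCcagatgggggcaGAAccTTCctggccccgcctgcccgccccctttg

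These 5 genes with the motif did not share a direction in the kidney. Hsph1, Dnaja1 and Hspa1a were lower, Hspb1 was higher and Hspa1b was not called. A match to these letters is a description of the window and not a mapped binding site.

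Among the other cytosolic HSP70 and HSP110 proteins, Hspa4l (-0.60), Hspa4 (-0.40), Hspa1l (-0.35) and Hspa14 (-0.27) were lower in the kidney, and Hspa1l and Hspa14 turned slightly positive under spike-in scaling. The HSP90 pair also fell. Inducible Hsp90aa1 read 4.88, 4.51 and 4.45 in the young and 3.74, 3.83 and 3.87 in the aged kidneys, without overlap (change -0.80, SE 0.13, adjusted p = 0.00267). Constitutive Hsp90ab1 fell by 0.61 (SE 0.07, adjusted p = 0.000754). Neither remained called under quantile or spike-in scaling, where the pair's median change was -0.22 and -0.35. In the liver and lung the HSP90 pair had changes between -0.49 and -0.30 for the brightest probes, and these were not called. The dimmer Hsp90aa1 probe changed by -0.60 in the liver and -0.56 in the lung, with adjusted p-values of 0.033 and 0.119 in a limma fit over all probes.

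Hspa2, an HSP70 known best for its role in male germ cells, was the member that rose most in the aged liver. It read -1.54, -1.12 and -0.31 in the young and 0.62, 0.95 and 1.04 in the aged livers. The ages did not overlap, and the rise was 3.63-fold (change 1.86, SE 0.32, adjusted p = 0.0103). In the kidney it read -0.03, -0.05 and -0.18 in the young and 0.36, 0.37 and 0.36 in the aged mice, a smaller rise of 1.37-fold (change 0.45, SE 0.08, adjusted p = 0.00315). In the lung its change was -0.02 (adjusted p = 0.957), and the WAT had a change of -0.79 that was not called (adjusted p = 0.303). The summed male germ cell markers were 0.597 to 0.716 in the young and 0.311 to 0.443 in the aged livers.

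Most co-chaperones of HSP70 and HSP90 were also lower in the kidney. Of 19 listed partners 14 were lower and 1 was higher, with a median of -0.43. Over all genes tested in the kidney 42.6% were lower, with 57.5% at levels of 2 to 4 and 68.7% above 4. The falls were led by Fkbp4, an immunophilin of steroid receptor complexes (-1.07), Chordc1, an HSP90-binding protein (-0.71), and Cdc37l1, a relative of the kinase co-chaperone Cdc37 (-0.67). Unc45a, a myosin chaperone, rose by 0.25. In the liver Stip1, which links HSP70 to HSP90, fell by 0.83, the exchange factor Hspbp1 fell by 0.66 and the import receptor Tomm70a fell by 0.60. In the lung Ppid, a cyclophilin bound to HSP90, fell by 0.64. Of the 5 heat shock factors and their regulators, Hsf1 (-0.22) and its inhibitor Hsbp1 (-0.36) were lower in the kidney, and none was called elsewhere.

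Chaperones of the endoplasmic reticulum fell moderately in the kidney. Of 8 members 5 were lower and 1 was higher, with a median of -0.41, and 2 were lower under quantile or spike-in scaling. The J-domain proteins Dnajc3 and Dnajb11, which serve the ER HSP70, fell by 0.73 (SE 0.09, adjusted p = 0.00104) and 0.70 (SE 0.09, adjusted p = 0.00132). Hspa5, the ER HSP70 known as BiP, read 6.31, 6.34 and 6.25 in the young and 5.60, 5.77 and 5.97 in the aged kidneys, without overlap (change -0.52, SE 0.11, adjusted p = 0.00758). It turned to 0.05 under quantile normalization. Hsp90b1, the ER HSP90, fell by 0.33 (SE 0.08, adjusted p = 0.0111), and its change was 0.02 under spike-in and 0.20 under quantile scaling. Dnajc10, a disulfide reductase, was higher (change 0.33, SE 0.08, adjusted p = 0.0149). Hspa13, an ER HSP70 of little-known function, changed by -0.23 (adjusted p = 0.0526).

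The ER stress element, CCAAT followed after 9 bases by CCACG on either strand, was rare among all promoters (35 of 27025, 0.13%) and was found in 3 of 68 members (4.41%). These were Hspa5, Hsp90b1 and Dnajc3, of 7 ER members with a promoter, and their windows are shown for that reason. The match lay 46, 88 and 86 bases before the start, capitals mark its fixed letters, and that of Hsp90b1 is in the reverse orientation.
Hspa5, chr2:34772005-34772064, plus strand: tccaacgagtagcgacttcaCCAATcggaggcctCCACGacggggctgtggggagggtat
Hsp90b1, chr10:86705512-86705571, minus strand: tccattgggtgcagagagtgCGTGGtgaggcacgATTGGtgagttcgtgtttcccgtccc
Dnajc3, chr14:118937807-118937866, plus strand: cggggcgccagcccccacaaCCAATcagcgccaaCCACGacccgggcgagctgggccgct

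All 3 were lower in the aged kidneys under the 75th percentile scaling, and Dnajc3 was the one called under each alternative tried. In the liver Dnajb9, an ER J-domain protein induced by unfolded proteins, read 3.58, 3.14 and 3.35 in the young and 2.56, 2.13 and 2.95 in the aged mice. It fell by 0.81 without overlap (SE 0.24, adjusted p = 0.0477), and in the kidney it fell by 0.49 (SE 0.14, adjusted p = 0.0219). The WAT and lung held no called ER member. Under the 75th percentile scaling, 16 of 25 measured partner genes of ER folding were lower and 1 higher in the kidney (median -0.33). Over all genes tested there 42.6% were lower. Calr3, a calreticulin best known in testis (-1.13), Herpud1, of ER-associated degradation (-0.83), and Sil1, the exchange factor of BiP (-0.83), fell most. Serpinh1, the collagen chaperone HSP47, rose by 0.83. In the liver 4 partners were lower, among them Manf (-0.89), Ero1b (-0.76) and Calr (-0.69).

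The cytosolic chaperonin, a ring of different subunits that folds actin and tubulin, had 8 members, and all 8 were lower in the kidney with a median of -0.43. Apart from Cct6b the falls were small, from -0.67 for Cct6a to -0.32 for Cct4. Cct6a read 5.14, 5.27 and 5.34 in the young and 4.50, 4.57 and 4.67 in the aged kidneys (SE 0.09, adjusted p = 0.00134). Cct8 changed by -0.45, Cct3 by -0.46, Cct7 by -0.42, Cct5 by -0.35 and Cct2 by -0.34. The group depended on the scaling, since 2 of 8 remained lower under either alternative, with medians of -0.02 (quantile) and -0.08 (spike-in), and Cct2, Cct4 and Cct5 turned positive under both. Cct6b, a subunit known from testis, read -0.62, -0.44 and -0.41 in the young and -2.79, -2.21 and -1.68 in the aged kidneys. It fell 3.33-fold (change -1.74, SE 0.27, adjusted p = 0.00222), and it remained called with Cct6a under all alternatives.

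In the liver Cct3 was the chaperonin subunit called, with levels of 3.51, 3.59 and 3.20 in the young and 2.80, 2.48 and 2.74 in the aged mice (change -0.76, SE 0.18, adjusted p = 0.025). No subunit was called in the lung, where the changes were between -0.27 and -0.04, or in the WAT, where they were between -0.56 and 0.19. Of 9 partners, the subunit Tcp1, the prefoldins that hand over actin and tubulin, and related proteins, 7 were lower in the kidney, led by Tcp1 (-0.64), Pfdn1 (-0.64) and Pfdn2 (-0.63). The share lower over all genes tested there was 42.6%.

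The small heat shock proteins were called in both directions in the kidney. Of 7 tested 4 were higher and 3 lower, with a median change of 0.35. Hspb1, also called HSP27 or HSP25, read 3.62, 3.50 and 3.56 in the young and 5.69, 5.66 and 5.51 in the aged kidneys. All aged values were close together and far above the young ones, a 4.16-fold rise (change 2.06, SE 0.09, adjusted p = 3.75e-05). Hspb8, the partner of Bag3 in chaperone-assisted autophagy, read -1.55, -1.30 and -1.17 in the young and 0.65, 0.71 and 0.72 in the aged kidneys. It rose 4.10-fold without overlap (change 2.04, SE 0.11, adjusted p = 7.58e-05). Bag3 itself was not called in any tissue.

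In the lung the same pair fell. Hspb1 read 6.87, 6.72 and 6.67 in the young and 5.77, 5.98 and 5.98 in the aged lungs, with no overlap (change -0.84, SE 0.11, adjusted p = 0.0182). Hspb8 read 2.64, 2.91 and 2.76 in the young and 1.97, 2.10 and 1.66 in the aged lungs, again apart (change -0.86, SE 0.15, adjusted p = 0.0329). The lung falls were 1.79-fold and 1.82-fold. In the liver and WAT neither was called, with changes of -0.22 and -0.20 for Hspb1 and -0.47 and -0.60 for Hspb8, and the ages overlapped.

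The muscle-associated small heat shock proteins were called in the kidney and the liver, in both directions. In the kidney Hspb7 read -0.39, -0.31 and -0.03 in the young and 0.58, 0.30 and 0.02 in the aged mice (change 0.54, SE 0.17, adjusted p = 0.0316). Hspb2 rose by 0.35 in the kidney (SE 0.08, adjusted p = 0.0111) and by 1.08 in the liver, where it read -2.52, -2.78 and -2.91 in the young and -1.46, -1.80 and -1.71 in the aged mice (SE 0.18, adjusted p = 0.00945). Hspb6 fell by 0.47 in the kidney (adjusted p = 0.00733) and by 1.04 in the liver (adjusted p = 0.0445), and testis-associated Hspb9 fell by 0.56 and 0.76 (adjusted p = 0.0115 and 0.0397). Heart muscle markers summed to 1.59 to 1.63 in the young and 2.08 to 3.03 in the aged kidneys, and to 1.60 to 1.79 and 1.57 to 2.08 in the livers. The 8 markers did not move together, with 3 higher and 2 lower in the kidney and 1 higher and 2 lower in the liver. Their part in these changes was not tested. Hspb11, a cilium transport protein, fell by 0.31 in the kidney (adjusted p = 0.0104) and read 0.05 under spike-in scaling. Hspb3 was tested in the lung alone (change -0.69, adjusted p = 0.514).

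In the lung Hspb7 had the largest change of any member but was not called. It read 3.02, 3.51 and 2.69 in the young and 0.98, 2.11 and 2.70 in the aged lungs (change -1.14, SE 0.46, adjusted p = 0.181). Summed markers of heart muscle were 315, 260 and 105 in the young and 18.4, 86.7 and 199 in the aged lungs in the same order of mice. None of the 8 heart markers was called, and 7 had negative changes. Adipocyte markers summed to 20.3 to 42.5 in the young and 2.62 to 16 in the aged lungs. All 8 small heat shock proteins had negative changes in the lung, and the part of these markers in them was not tested. The related crystallin Cryab, abundant in heart, changed by -0.74 in the lung (adjusted p = 0.108) and by -0.04 in the kidney (adjusted p = 0.76). Cryaa fell by 3.12 in the kidney (adjusted p = 0.000243) and by 2.97 in the liver (adjusted p = 0.0154), and the extracellular chaperone Clu rose by 1.01 in the kidney (adjusted p = 0.000415).

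**Figure D3:**
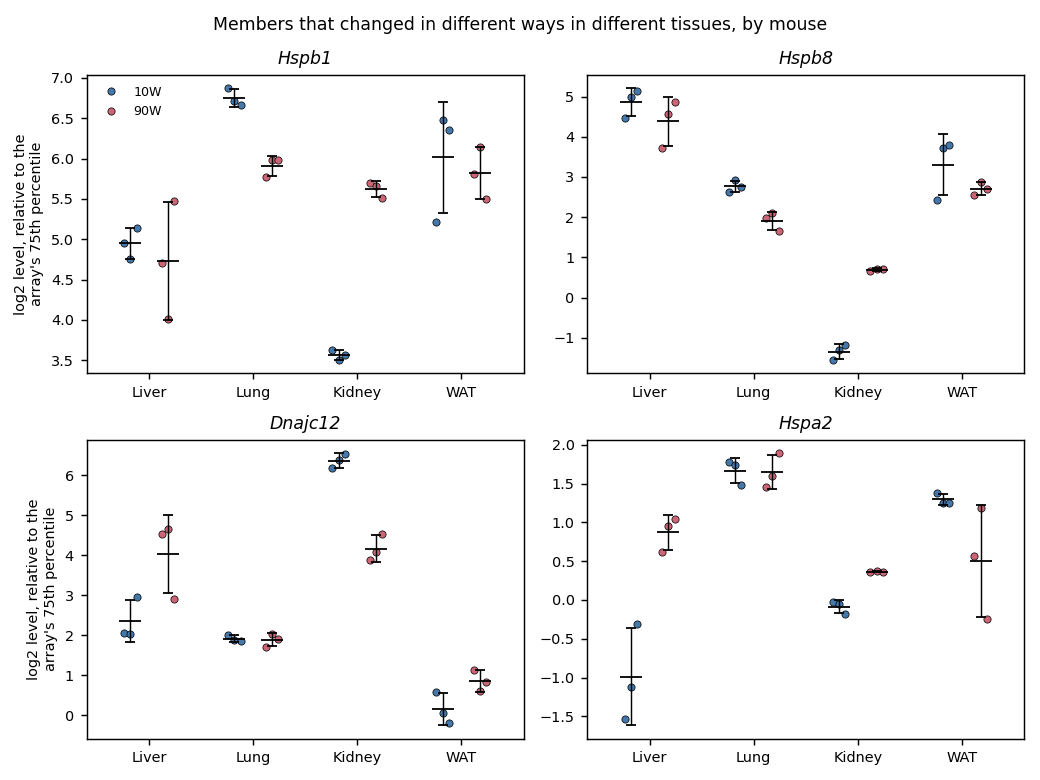
Levels by mouse of Hspb1, Hspb8, Dnajc12 and Hspa2 on the log2 scale relative to the 75th percentile of each array, in 4 tissues; points are single mice and bars give the mean ± SD of the 3 mice of an age. Hspb1 and Hspb8 lie higher at 90W in the kidney and lower in the lung, Dnajc12 lies lower at 90W in the kidney and higher in 2 of 3 aged livers, and Hspa2 is higher at 90W in liver and kidney.

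The J-domain proteins outside the ER and mitochondrial groups were the most numerous, and their changes were the widest. In the kidney 22 of 32 were lower and 2 higher, with a median of -0.44, and under spike-in scaling the split was 10 lower and 6 higher. Dnajc12, a J-domain protein that binds aromatic amino acid hydroxylases, read 6.17, 6.39 and 6.54 in the young and 3.88, 4.10 and 4.53 in the aged kidneys. It had the largest fall of any called member, 4.59-fold and without overlap (change -2.20, SE 0.19, adjusted p = 0.000311). In the liver it went the other way in part of the mice, reading 2.07, 2.04 and 2.97 in the young and 4.53, 4.65 and 2.90 in the aged livers. Aged replicate 4, the library with high Cidea, lay within the young range, so the liver rise was called with overlapping ages (change 1.67, SE 0.50, adjusted p = 0.0474). In the WAT it changed by 0.70 (adjusted p = 0.234) and in the lung by -0.03 (adjusted p = 0.873).

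Further falls in the kidney were those of Dnajc6, the auxilin that uncoats clathrin vesicles (-1.34, SE 0.12, adjusted p = 0.000386), and Dnajc28 (-1.31, SE 0.13, adjusted p = 0.000472). Dnajc28 also fell in the liver, from 0.20, 0.25 and -0.02 in the young to -1.06, -1.65 and -0.74 in the aged mice (change -1.29, SE 0.25, adjusted p = 0.0142). It was the largest fall of a called member there, and the ages were apart. Dnajc11, a protein of the mitochondrial inner membrane organising complex, fell in both tissues as well, by 0.58 in the kidney (adjusted p = 0.000874) and by 0.74 in the liver (adjusted p = 0.0246). Dnajb6 and Dnajb2, which hold back aggregation of polyglutamine proteins, fell by 0.92 and 0.44 in the kidney (adjusted p = 0.00129 and 0.00626). The second brightest of 5 Dnajb6 probes changed by -0.07 there (adjusted p = 0.546 in a limma fit over all probes). The remaining Dnajb6 probes fell by 0.74 to 0.84. Dnajc5, the cysteine string protein, changed by -0.06 (adjusted p = 0.518). Dnajc9, a histone chaperone, rose in the liver, from 1.26, 1.26 and 1.11 to 1.69, 1.99 and 1.83 (change 0.63, SE 0.16, adjusted p = 0.0287). Dnajb4, a cytosolic partner of HSP70, was the remaining lung call. It read 2.27, 2.27 and 2.35 in the young and 1.92, 1.76 and 1.79 in the aged lungs (change -0.47, SE 0.09, adjusted p = 0.0414). Its dimmer probes changed by -0.11 and -0.15 there, with adjusted p-values of 0.714 and 0.577 in a limma fit over all probes.

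Dnajb13, a component of the radial spokes of motile cilia, was among the higher calls in the kidney at a very low level. It read -7.22, -7.27 and -7.27 in the young kidneys, where no array was well above background, and -5.59, -5.49 and -5.45 in the aged kidneys, where all 3 were. It passed the filter only through the group in which it is high, so its call is a description, and no fold is given because the young values lie at the limit of measurement. Of 6 markers of ciliated epithelium 4 were higher in the aged kidneys, Foxj1 by 4.67, and their sum was 0.763 to 1.22 in the young and 2.56 to 3.75 in the aged kidneys. Their part in the Dnajb13 change was not tested. In the lung, a ciliated tissue, Dnajb13 read between -0.95 and -0.69 in the young and between -1.80 and -0.94 in the aged mice (adjusted p = 0.223). Dnajb3, a testis J-domain protein, rose by 0.52 in the kidney (SE 0.17, adjusted p = 0.033).

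Of the 6 BAG proteins, 4 were lower in the kidney, and 1 was lower under quantile or spike-in scaling. Bag1, an exchange factor that ties HSP70 to the proteasome, read 6.61, 6.74 and 6.71 in the young and 5.82, 5.96 and 5.98 in the aged kidneys, without overlap (change -0.77, SE 0.09, adjusted p = 0.000673). Bag4 fell by 0.67 (adjusted p = 0.00577), Bag6 by 0.31 (adjusted p = 0.00985) and Bag5 by 0.23 (adjusted p = 0.0442), and both Bag5 and Bag6 turned positive under spike-in scaling. Bag2 changed by -0.0011 (SE 0.12, adjusted p = 0.994). No BAG protein was called in the liver, lung or WAT. The atypical HSP70 proteins Hspa12a and Hspa12b were not called in any tissue, with kidney changes of -0.03 and 0.26.

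**Figure D4:**
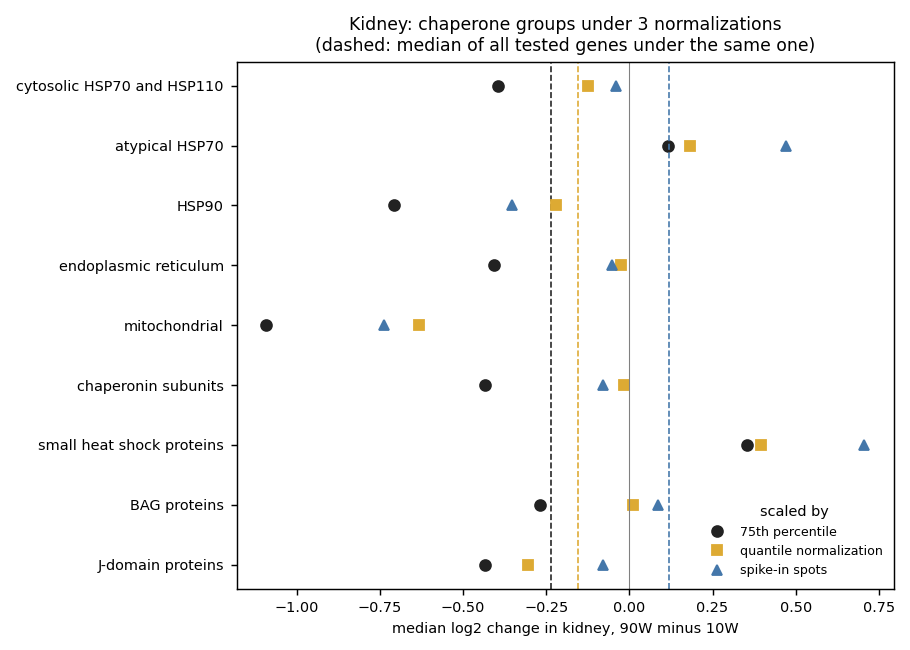
Median log2 change of each role group in the kidney under 3 scalings of the arrays (75th percentile, quantile, spike-in spots), with dashed lines at the median of all genes tested under the same scaling. The mitochondrial group lies lowest under each (-1.09, -0.63 and -0.74), the small heat shock proteins lie above 0 under each, and the chaperonin subunits move from -0.43 to near 0.

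In the WAT no member was called, and the spread between mice was wide. The largest difference of means was that of Dnajb8, a testis J-domain protein, which read 0.67, -7.96 and -5.15 in the young and -7.75, -4.55 and -7.65 in the aged mice. The high value was that of young replicate 1, the sample with the germ cell markers, and the change was -2.50 with an SE of 2.23 (adjusted p = 0.576). The same mouse was high for Dnajc10, which read 4.96, 1.79 and 1.42 in the young and 2.05, 1.83 and 1.77 in the aged WAT, and for Hspb9, at 0.10 against -2.47 to -2.02 in the other 5 mice. Hspa12a read 2.78, 3.53 and 3.53 in the young and 1.82, 2.92 and 1.03 in the aged WAT (change -1.36, SE 0.51, adjusted p = 0.226), and Hspa12b changed by -1.09 (adjusted p = 0.317). Dnaja4 read 3.66, 1.62 and 2.31 in the young and 1.14, 1.51 and 1.37 in the aged WAT (change -1.19, adjusted p = 0.275). Leukocyte markers summed to 24.5 to 47.6 in the young and 124 to 260 in the aged WAT. Leaving out young replicate 1, or any other WAT mouse, gave no call.

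The liver and lung counts changed when a mouse was left out, and so did those of all genes. In the liver 4749 genes were lower over all, 889 without young replicate 2 and 4551 without aged replicate 4. In the lung 875 genes were lower over all, and 1, 8 and 64 without young replicate 1, 2 or 3. In the liver the count of higher members was 2 without young replicate 1, without young replicate 2 or without aged replicate 2. The count of lower members was 0 without young replicate 1 or 2, 3 without young replicate 3 or aged replicate 1, and 1 without aged replicate 2. It was 14 without aged replicate 4, the library with high Cidea. In the lung no member was lower once any 1 young mouse was left out, and 2 were lower without any 1 aged mouse, aged replicate 1 with the liver markers included. The leukocyte markers of the liver summed to 18.4 to 20.1 in the young and 42.7 to 64.0 in the aged mice. The adipocyte markers summed to 5.47 to 6.75 and 17.4 to 22.0, a rise made by Fabp4 alone (2.05 to 2.53 against 4.06 to 4.42). Lep read -0.07 to 0.32 in the young and -0.69 to -0.48 in the aged livers, and Adipoq and Plin1 were not well above background in any aged liver. The sum of the liver's own markers was lower in every aged than in every young liver, as given above. Of these 4 markers 1 was called lower, and Apoa1 overlapped between the ages. The part of these markers in the liver calls was not tested.

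A test of the difference between tissues asked whether the change with age was unequal over the 4 tissues. It called 33 of 76 members (43.4%), beside 37.5% of all genes tested (limma F test, Benjamini-Hochberg over all genes). The count was 20 under quantile normalization and 6 under spike-in scaling, and 19, 18 and 18 without young replicate 2, young replicate 3 or aged replicate 1 of every tissue. Over all genes the count was 9677 in the main test, and 9002, 5016, 5388, 5805 and 5911 in these 5 settings in the same order. The 5 members with the smallest p-values were Dnajc12 (adjusted p = 0.000131), Hspb8 (0.000202), Hspe1 (0.000219), Hspb1 (0.000307) and Hspa2 (0.000548). For Dnajc12 the kidney fell and the liver rose, for Hspb1 and Hspb8 the kidney rose and the lung fell, and for Hspe1 the kidney fell by 1.20 while the other tissues had changes of -0.33, -0.23 and 0.09. For Hspa2 the liver change of 1.86 stood beside a kidney change of 0.45, a lung change of -0.02 and a WAT change of -0.79. Hspd1 (0.003), Hspa8 (0.00245), Dnajc19 (0.00253) and Dnajc15 (0.00332) were also called for a difference, and Hspa9 was not (adjusted p = 0.0527).

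Not every member could be tested. Dnajb7 was too dim in all 4 tissues, Dnajb8 in liver, lung and kidney, Hspb3 in liver, kidney and WAT, Dnajc6 in liver, lung and WAT, Dnajb13 and Dnajb3 in the liver, and Dnajc22 in the WAT. Of the 39 members with several tested probes in the kidney, 1 had probes of opposite sign, and the counts were 1 of 36 in the liver, 11 of 39 in the lung and 8 of 38 in the WAT. In no case were probes of 1 member called in opposite directions.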

How the data were processed

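Per the labels and methods, RNA was prepared from bead-crushed tissue, labelled with Cy3 and hybridised to Agilent arrays. A human array kit is named in the methods, whereas the deposited files carry a mouse design. The deposited intensity values came from Agilent Feature Extraction 11.0.1.1, named in the submitters' processing notes. The authors' files give each spot's background-subtracted processed signal, median signal, local background and a call for well above background, with no scaling between arrays. Levels are the log2 of the authors' processed signal less the array's own 75th percentile. Control spots and 1841 outlier spots were left out, and spots of a probe were averaged. Of 56605 probes, 32994 (58.29%) were matched through their accession, without version, to RefSeq symbols of GRCm38.p6. A probe had to be well above background on 3 or more of a tissue's 6 arrays, and was then tested with limma 3.58.1 in R 4.3.3 (lmFit, eBayes, Benjamini-Hochberg), without covariates, and the scripts were tested on simulated data. Unequal changes between tissues were tested with an F test over all 24 arrays. The alternatives were normexp (offset 16), quantile, spike-in and median scaling, no filter, the mean of a gene's probes, the replicate block, an unpaired Student's t-test as the methods name, all arrays in 1 fit and leaving out each replicate. Named members were a list of the best-known ones, the 5 largest called changes without overlap in each tissue and direction, members called in opposite directions, the 5 smallest p-values for tissues, and the 3 partner genes that changed most each way. Dnaja3, Dnaja4, Dnajb8, Dnajc11, Dnajc14, Dnajc24, Hspa1l and Hspb11 were named after their values were seen. The members and lists were chosen with earlier results of these data known. Motifs were searched with Python 3.11.15. Protein sequences were not used here, and 1 marker gene is not reported here.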

Additional observations from a re-analysis of the deposited data

Results flagged for a closer look

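A difference between tissues in the change with age was found for 33 of 76 members, by limma's F test of the tissue and age terms over all 24 arrays with Benjamini-Hochberg adjustment over all genes tested. The 5 with the smallest adjusted p were Dnajc12 (0.000131), Hspb8 (0.000202), Hspe1 (0.000219), Hspb1 (0.000307) and Hspa2 (0.000548). Dnajc12 changed by -2.20 in the kidney and by 1.67 in the liver, where aged replicate 4 lay within the young range. Hspb8 changed by 2.04 in the kidney and by -0.86 in the lung, and Hspb1 by 2.06 and -0.84. Hspe1 changed by -1.20 in the kidney, and this difference between tissues passed under every alternative except spike-in scaling, where its adjusted p was 0.0727. Hspa2 changed by 1.86 in the liver and by -0.79 in the WAT. With 3 mice in a group, no formal outlier test of a single mouse was made.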

How the results depend on the processing

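Of 1182 changes of called members recomputed under the alternatives, 969 remained called in the same direction, 195 kept the sign without passing the threshold and 18 turned sign, all of them in the kidney and none past the threshold after turning. Under spike-in scaling the turned changes were Bag5 0.12, Bag6 0.045, Cct2 0.015, Cct4 0.039, Cct5 0.0087, Dnajc14 0.063, Dnajc24 0.074, Hsp90b1 0.023, Hspa14 0.083, Hspa1l 0.0061 and Hspb11 0.049. Under quantile normalization they were Bag6 0.051, Cct2 0.12, Cct4 0.15, Cct5 0.10, Hsp90b1 0.20, Hspa14 0.018 and Hspa5 0.053. Kidney higher counts were 13 under spike-in scaling, 5 with median centring and 3 in a fit of all 24 arrays, and lower counts were 35 under quantile normalization and 22 under spike-in scaling. Liver lower counts were 11 with normexp, 0 under spike-in scaling, 12 without the filter, 12 with the mean of a gene's probes and 26 in the fit of all arrays. Over all genes they were 6561, 854, 12841, 4907 and 7818 in the same order. Lung lower counts were 0 without the filter and 0 in the fit of all arrays, beside 136 and 383 over all genes. That fit called 2 higher and 7 lower in the WAT, beside 3263 and 3127 over all genes. The test of tissues called 20 under quantile normalization and 6 under spike-in scaling, beside 9002 and 5016 over all genes. The cause was not tested. The methods' t-test called in the liver 4 higher with 22 lower, in the lung 1 and 26, in the kidney 8 and 59 and in the WAT 2 and 6 at an unadjusted p under 0.05, and after Benjamini-Hochberg 2 and 1, 0 and 3, 6 and 56, and 0 and 0. With the replicate number as a block the counts were 2 and 0 in the liver, 0 and 0 in the lung, 6 and 55 in the kidney and 0 and 0 in the WAT, and 34 for the test of tissues. The numbers do not pair the mice, since the 2 ages are different animals. Same-numbered samples of the 2 ages correlated between -0.17 and 0.18. Leaving out each replicate in turn gave in the liver 2 to 6 higher with 0 to 14 lower, in the lung 0 to 0 with 0 to 2, in the kidney 5 to 8 with 52 to 58, in the WAT 0 to 0 both ways, and 18 to 35 for the test of tissues. With 3 arrays per age and tissue, their number limits the precision.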
